A study of Homo sapiens with 4 samples.

Results

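The 35 genes described here encode chaperones of the human cytosol and mitochondria: heat shock proteins, their cochaperones, the heat shock factors HSF1 and HSF2, the CCT ring and prefoldin. They were chosen by name and not by any measured value, though with earlier results of these data known. Each matched a single row among the 58302 genes listed. T24 is an established human cell line from a urinary bladder carcinoma. Its polyA RNA was sequenced in 4 libraries. Of these, 2 were labelled control and 2 IGF2BP3 knockout, from a stable line edited by CRISPR/Cas9. The product of IGF2BP3 binds messenger RNA, in part through the m6A mark, and the comparison asks what its loss does to RNA levels in T24. The labels give no other agent, and they do not say whether the knockout libraries come from 1 clone, whether the controls went through the same selection, or whether libraries are separate cultures. The p-values therefore measure the spread between these samples, which may be technical.

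Levels are FPKM, fragments per kilobase of a transcript, scaled by the depth of its library. The library totals behind them were 811823 to 2162179 reads, which is shallow, and the median member had 160 to 371 reads. IGF2BP3 itself stood at FPKM 2.94 and 21.5 in the controls, a listed 0 in knockout 1 and 0.190 in knockout 2 (adjusted p = 0.955 in limma). KRT8, KRT18 and VIM were present in each library. The 12 epithelial and urothelial markers summed to 439.7 and 574.9 FPKM in control cells and to 1499 and 1163 in knockout cells, most of it KRT8 and KRT18. The 4 mesenchymal markers summed to 183.3 and 185.1 FPKM in control cells and to 291 and 381.9 in knockout cells, most of it VIM. The part of these in the results below was not tested. EPCAM, CDH1, KRT5, KRT19 and the uroplakin genes UPK1B, UPK2 and UPK3A of differentiated urothelium were listed at 0 throughout. All 5 leukocyte and all 3 erythroid markers were at 0 in each library. The 4 fibroblast markers summed to at most 14.85 FPKM in any library, and of the 3 endothelial markers 1 was above 0, in control 2 alone (2.72 FPKM). In bulk RNA such as this, fewer cells that make a transcript and less of it per cell cannot be told apart.

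Chaperones help other proteins reach and keep their folded shape. HSP70 binds short unfolded stretches with J-domain proteins as its partners, and HSP90 acts later on kinases and receptors, with STIP1 passing clients from one to the other. Prefoldin hands new actin and tubulin to the CCT ring, a closed chamber of related subunits, while HSPD1 and its lid HSPE1 form the corresponding chamber of mitochondria. Many of these genes are induced by HSF1, which binds heat shock elements, inverted repeats of the letters GAA, in their promoters. Cancer cells often depend on this system.

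Heat shock elements were looked for because they are a known feature of inducible chaperone promoters. RefSeq promoter windows (GRCh38.p14), from 250 bases before to 50 bases after a transcript start, were found for 32 of the 35 members, 45 windows in all. CCT6A, HSF1 and PFDN2 had no entry. The motifs searched were GAANNTTC and TTCNNGAA. Each is its own reverse complement, so that a search of 1 strand covers both, and a run of 3 units holds both motifs overlapping. At least 1 of the motifs was in 42.2% of the member windows, covering 17 members, and in 13.5% of all 35116 windows of that length. A run of 3 units was in 6 of the 45 member windows and in 0.49% of all windows. The 8 stretches below show the motifs, in capitals, in genes whose levels are then described. Stretches with more than 30 bases in exons of some transcript are cut to 30 bases.
HSPA1A: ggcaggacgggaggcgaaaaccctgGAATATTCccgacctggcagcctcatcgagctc
HSPA1B: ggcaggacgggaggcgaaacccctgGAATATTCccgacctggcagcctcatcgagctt
HSPA8: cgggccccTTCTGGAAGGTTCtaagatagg
HSPD1: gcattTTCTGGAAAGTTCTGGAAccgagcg
HSP90AA1: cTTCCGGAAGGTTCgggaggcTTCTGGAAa
HSP90AB1: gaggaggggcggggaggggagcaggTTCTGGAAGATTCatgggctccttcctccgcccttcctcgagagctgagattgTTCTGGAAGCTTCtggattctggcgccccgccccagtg
DNAJB1: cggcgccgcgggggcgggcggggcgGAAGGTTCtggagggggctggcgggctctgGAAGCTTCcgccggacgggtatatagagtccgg
HSPB1: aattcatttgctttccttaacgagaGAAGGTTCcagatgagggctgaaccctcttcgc

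Each stretch is written 5′ to 3′ on the strand of its gene. HSPA1A (chr6:31815412-31815469) and HSPA1B (chr6:31827608-31827665) lie on the plus strand and differ at 2 of the 58 bases shown. HSP90AB1 (chr6:44247753-44247868) and HSPB1 (chr7:76302466-76302523) are also on the plus strand. HSPA8 (chr11:123062170-123062199), HSP90AA1 (chr14:102087104-102087133) and DNAJB1 (chr19:14518412-14518499) are on the minus strand. The HSPD1 stretch (chr2:197500061-197500090, minus strand) lies between the RefSeq starts of 2 divergent genes, HSPD1 and HSPE1, and within exons of both in GENCODE 29. Its 18-base motif, from 197500068 to 197500085, is 228 bases from the start of HSPD1 and 294 bases from that of HSPE1. A match is a description of letters and not a measured binding site. Among tested members, the 15 with a motif in a window had a median log2 fold change of 0.12 and the 15 without had 0.18. HSPE1 counts among those without, since the motif shown for HSPD1 lies outside its window.

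No chaperone gene passed the test between knockout and control. The test was limma on log2(FPKM + 0.5), fitted over the 11463 genes whose FPKM averaged 1 or more, with an adjusted p (Benjamini-Hochberg) of 0.05 as the threshold. It took in 33 of the 35 members and called 0 of them, against 0.0872% of all genes tested (0.0611% higher in the knockout and 0.0262% lower). The smallest adjusted p of any member in limma was 0.955, and 1 member, CCT8, had an unadjusted p under 0.05, against 3.91% of all genes. Limma-voom on recovered reads also called 0 members, with 2 at an unadjusted p under 0.05 and a smallest adjusted p of 0.282. A fitted difference, here and in what follows, is the log2 fold change on the log2(FPKM + 0.5) scale, knockout minus control, with its SE from 2 libraries in each group. Where values are set against each other, controls 1 and 2 come first and knockouts 1 and 2 second.

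The fitted value was above 0 for 19 of the 33 members (57.6%) and for 48.2% of all genes. The members' median log2 fold change was 0.15, against −0.08 over all genes tested. Both knockouts lay above both controls for 8 members (24.2%, against 12.1% of all genes) and below them for 5 (15.2%, against 14.4%). Of the 8, HSPE1 and HSF2 count through 1 read in knockout 2 against listed zeros, a value under what a count of 0 allows in the controls. The wider of the replicate gaps exceeded the gap between group means for 30 of the 33, and for 84.6% of all genes. The exceptions were HSF1, CCT6A and PFDN5. A design of 2 against 2 libraries cannot give an exact two-sided permutation p below 0.333 for any single gene.

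**Figure D1:**
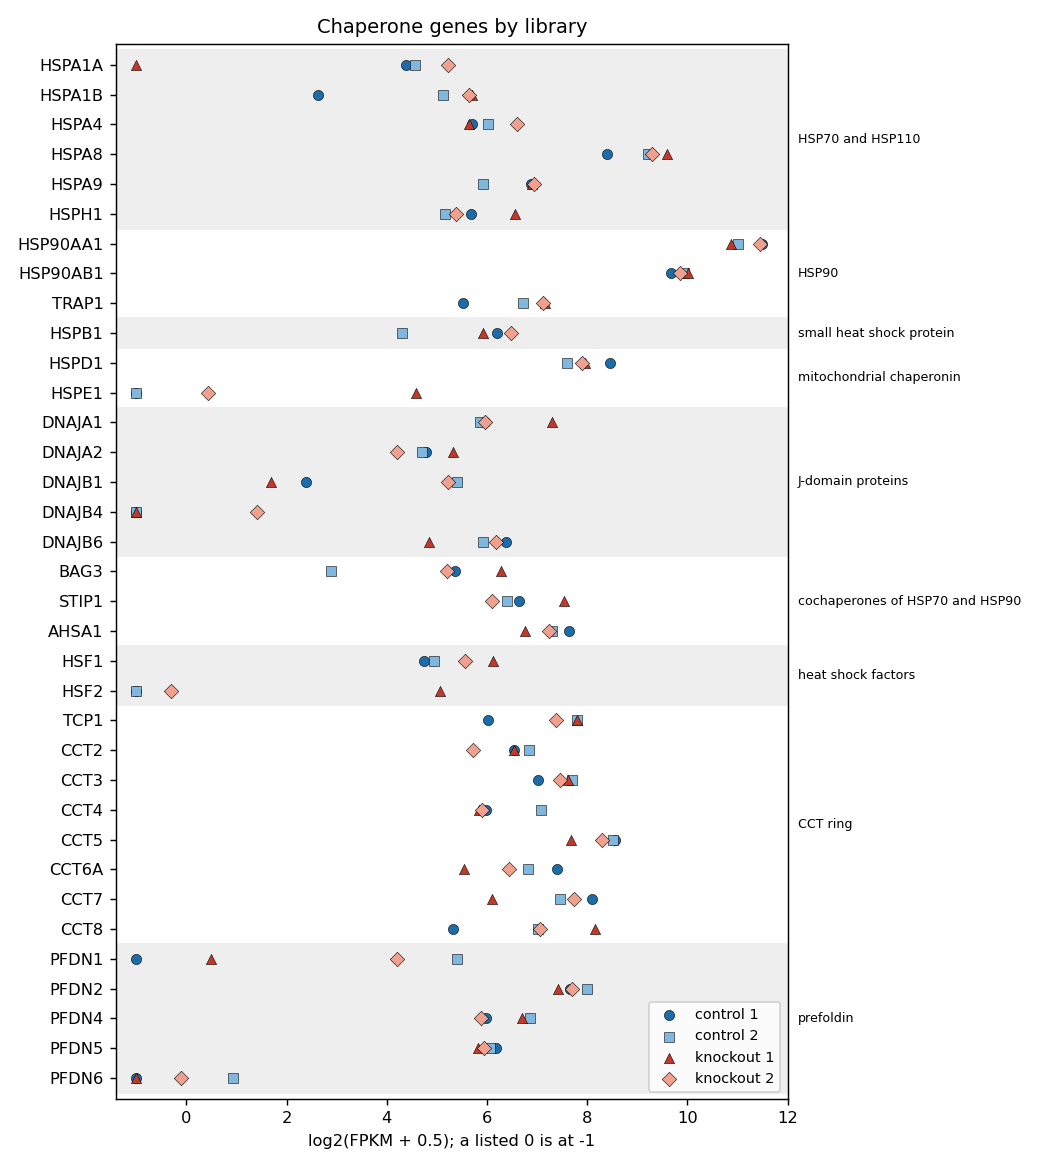
Level of each chaperone gene in each library as log2(FPKM + 0.5), with genes grouped by class and 1 marker per library. HSP90AA1, HSP90AB1 and HSPA8 lie at the right, and the markers at −1 are genes listed at 0, among them HSPE1 and HSF2 in both controls.

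The chaperone genes made up a similar part of the transcriptome in each library. Their FPKM summed to 6819 and 6571 in the controls and to 6660 and 7180 in the knockouts, or 1.91%, 1.80%, 1.84% and 2.01% of all FPKM. The knockouts lay on either side of control 1, so the groups overlapped. The range across libraries was often narrow. For 10 of the 33 tested (30.3%), the highest library was under 2 times the lowest, against 5.47% of all genes. They were more abundant as well, with a median mean FPKM of 85.1 against 10.4, and a listed 0 was found for 4 of the 33 (12.1%), against 49.4% of all genes. How far abundance bears on the narrow ranges was not tested.

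**Figure D2:**
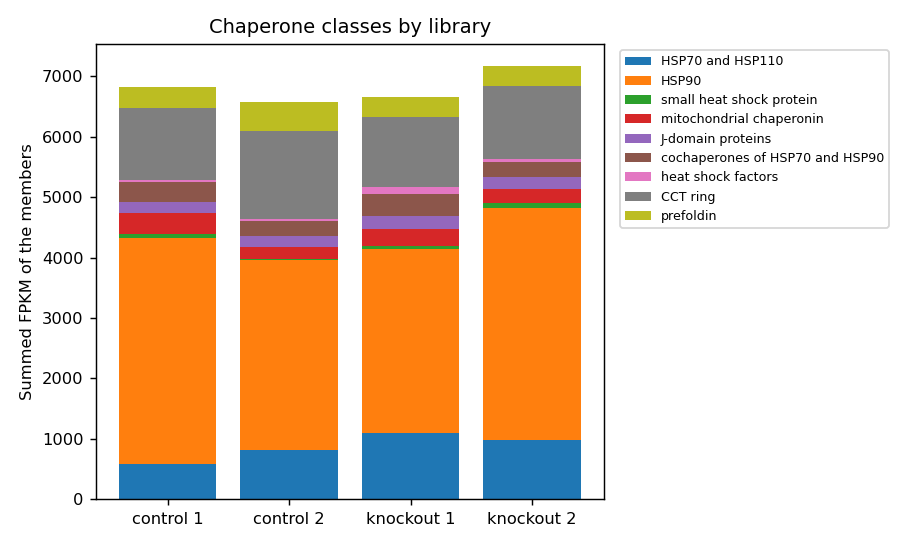
Summed FPKM of the chaperone genes in each library, stacked by class, with bars from 0. The totals lie between 6571 and 7180, and HSP90 is the tallest segment in each bar.

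HSP90 carried the largest share of chaperone RNA. HSP90AA1, the stress-inducible cytosolic HSP90, lies on the minus strand of chromosome 14 (102080738 to 102139699, hg38). It gave 2878 and 2064 FPKM in control cells and 1879 and 2775 in knockout cells. Control 1 and knockout 2 were high, control 2 and knockout 1 low, and the groups overlapped. Its fitted difference was −0.09 ± 0.26 (SE), with an adjusted p of 0.991 in limma. The sign turned under quantile normalization (0.18) and under limma-voom (0.09, adjusted p = 0.282). Its FPKM put HSP90AA1 6th to 9th among all genes in each library and at 28.2% to 42.2% of the members' sum.

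HSP90AB1, the constitutive partner of HSP90AA1, lies on the plus strand of chromosome 6 (44246166 to 44253888). It stood at FPKM 817 and 981 against 1025 and 928, the narrowest range of the members found in each library, with the highest library 1.25 times the lowest. Its fitted difference was 0.12 ± 0.35 (SE), with an adjusted p of 0.991 in limma. The ratio of HSP90AA1 to HSP90AB1 was 3.53 and 2.10 in the controls against 1.83 and 2.99. The inducible form was thus the more abundant in each library, with no separation of the groups.

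TRAP1 encodes the HSP90 of mitochondria. It gave 45.7 and 104 FPKM in control cells and 142 and 138 in knockout cells. Both knockouts were above both controls, but the controls lay further apart on the log2 scale than the group means. The fitted difference was 1.01 ± 0.74 (SE), or 0.42 without control 1 (adjusted p = 0.955 in limma with all libraries). Exons of DNASE1 on the opposite strand cover 29.3% of its exonic bases, and since the strand setting is not given, reads of the pair may not be told apart.

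HSP70 genes were led by HSPA8, the constitutive HSC70. It gave 335 and 594 FPKM in control cells and 775 and 629 in knockout cells. The knockouts lay above both controls, with knockout 2 close to control 2. Its fitted difference of 0.65 ± 0.41 (SE) had an adjusted p of 0.955 in limma, and was 0.23 without control 1. HSP90AA1, HSP90AB1 and HSPA8 kept this order in each library. The lowest value of HSP90AA1 was above the highest of HSP90AB1, whose lowest was in turn above the highest of HSPA8. The next gene, CCT5, reached FPKM 373 and so overlapped the range of HSPA8.

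The stress-inducible HSP70 is encoded by HSPA1A and HSPA1B, neighbours on chromosome 6 (31815464 to 31817946 and 31827735 to 31830255, plus strand). HSPA1A had FPKM of 20.5 and 23.2 in the controls, a listed 0 in knockout 1 and 37.02 in knockout 2. HSPA1B had 5.69 and 34.1 against 51.3 and 49.3. The longest open reading frames of the pair differ at 4 of 1926 bases, encode the same 641 residues and share an identical run of 1709 bases, so reads in that run cannot be assigned to 1 of them by sequence. Values of each gene alone are therefore uncertain, and exons of AL671762.1 on the same strand also cover 36.5% of those of HSPA1B. The fitted difference was −2.37 ± 1.86 (SE) for HSPA1A and 1.79 ± 1.21 (SE) for HSPA1B, opposite in sign, with an adjusted p of 0.955 each in limma. Without knockout 1 the value of HSPA1A turned to 0.75, and without control 1 that of HSPA1B was 0.55.

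Added together, HSPA1A and HSPA1B gave 26.2 and 57.4 FPKM in control cells and 51.3 and 86.3 in knockout cells. The sums overlapped between the groups. Of each sum, HSPA1A held 78.3% in control 1, 40.5% in control 2, 0 in knockout 1 and 42.9% in knockout 2. A listed 0 for HSPA1A in knockout 1 allows up to 3 reads, or FPKM 1.49, by counting error alone. HSPA8 was 7.29 to 15.1 times the sum in the 4 libraries. Reads that match both genes may have been dropped or shared out in counting, so the sum is uncertain as well.

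The other HSP70 class genes overlapped or nearly did. HSPA9, the mitochondrial HSP70 also called mortalin, had FPKM of 116 and 59.7 against 118 and 122, with knockout 1 hardly above control 1, a fitted difference of 0.52 ± 0.74 (SE), and 0.04 without control 2. HSPA4, an HSP110 relative that releases ADP from HSP70, had 51.2 and 63.9 against 49.5 and 96.9. HSPH1, the inducible HSP110, had 50.7 and 35.1 against 94.2 and 41.2. In both of these genes 1 knockout lay above both controls and the other did not. The median log2 fold change of the 6 genes was 0.54, and it ran from 0.36 to 0.65 with 1 library left out. Over all genes the median in those fits ran from −0.56 to 0.34. Without control 2 the 2 medians were close, 0.36 for the 6 genes and 0.34 for all genes.

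HSPB1, the small heat shock protein that holds unfolded proteins until HSP70 takes them, was the 1 small heat shock protein among the members. It gave 73.4 and 19.1 FPKM in control cells and 60.1 and 88.1 in knockout cells. Control 2 was the low library, and the groups overlapped. The fitted difference of 0.94 ± 0.94 (SE) was −0.01 without control 2 (adjusted p = 0.955 in limma with all libraries).

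J-domain proteins bring clients to HSP70 and start its ATP cycle. DNAJA1 gave 61.4 and 57.9 FPKM in control cells against 156 and 61.3, so that knockout 1 alone stood out. DNAJA2 had 27.1 and 25.7 against 39.5 and 17.8. DNAJB1, an inducible member whose stretch above holds 2 motifs, had 4.70 and 41.6 against 2.72 and 36.7. Its replicates differed 8.84-fold in the controls and 13.5-fold in the knockouts, more than the group means did. DNAJB6, which keeps polyglutamine proteins from aggregating, had 82.8 and 60.1 against 28.1 and 72.4. DNAJB4 was listed at 0 in 3 libraries and at 2.16, from 8 reads, in knockout 2, and was too low to be tested. No tested J-domain gene separated the groups.

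Of the cochaperones, BAG3 releases clients from HSP70 and routes them to autophagy. It gave 40.7 and 6.86 FPKM in control cells and 76.7 and 36.4 in knockout cells, with control 2 the low library. STIP1, the adaptor between HSP70 and HSP90, had 98.8 and 83.4 against 184 and 68.2. AHSA1, which speeds the ATPase of HSP90, had 199 and 157 against 108 and 151, with both knockouts lower. Knockout 2 was close to control 2, and its fitted difference was −0.47 ± 0.64 (SE, adjusted p = 0.955 in limma), or −0.23 without knockout 1 and −0.71 without knockout 2. STIP1 and BAG3 were both highest in knockout 1, as were HSPH1 and DNAJA1.

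The mitochondrial chaperonin pair gave unlike values. HSPD1, the HSP60 chamber, gave 348 and 193 FPKM in control cells and 248 and 237 in knockout cells. Both knockouts fell between the controls, and its fitted difference was −0.09 ± 0.54 (SE, adjusted p = 0.995 in limma). HSPE1, the HSP10 lid of that chamber, was listed at 0 in each control, at 23.3 in knockout 1 and at 0.849 in knockout 2. Those values stand for 0, 0, 18 and 1 reads. A count of 0 allows FPKM of up to 1.46 and 1.69 in the controls, and knockout 2 was below both limits. The fitted difference of 3.50 ± 2.75 (SE) depends on the pseudocount, was 1.43 without knockout 1, and had an adjusted p of 0.955 in limma.

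HSPD1 and HSPE1 overlap on chromosome 2 (197486581 to 197516737 on the minus strand and 197499994 to 197503457 on the plus strand) and share the promoter region shown above. HSPD1 was 10.6 times HSPE1 in knockout 1 and 279 times in knockout 2. Exons of the readthrough gene HSPE1-MOB4 cover 9.71% of the exonic bases of HSPE1, and those of HSPD1 cover 14.2% on the other strand. HSPE1-MOB4 was listed at 0 in all 4 libraries. The 26 HSPE1 pseudogenes together had 2, 2, 2 and 0 reads. Where reads of HSPE1 could otherwise have been placed was not tested.

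Neither heat shock factor passed the test. HSF1, the main activator of the heat shock response, gave 26.1 and 30.05 FPKM in control cells and 68.5 and 46.7 in knockout cells. The gap between groups was wider than either replicate gap. A replicate gap was the wider for 30 of the 33 tested members and for 84.6% of all genes. The fitted difference of HSF1, 1.00 ± 1.04 (SE), was 0.73 to 1.27 with any 1 library left out. Its adjusted p in limma was 0.955. HSF2, a related factor, was listed at 0 in each control, at 33.1 in knockout 1 and at 0.305 in knockout 2, from 71 reads and 1 read. A count of 0 allows up to 0.525 and 0.607 in the controls, above the value of knockout 2. Knockout 1 alone thus held nearly all HSF2 reads, and its fitted 3.38 ± 2.73 (SE) was 0.69 without that library (adjusted p = 0.955 in limma with all libraries).

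**Figure D3:**
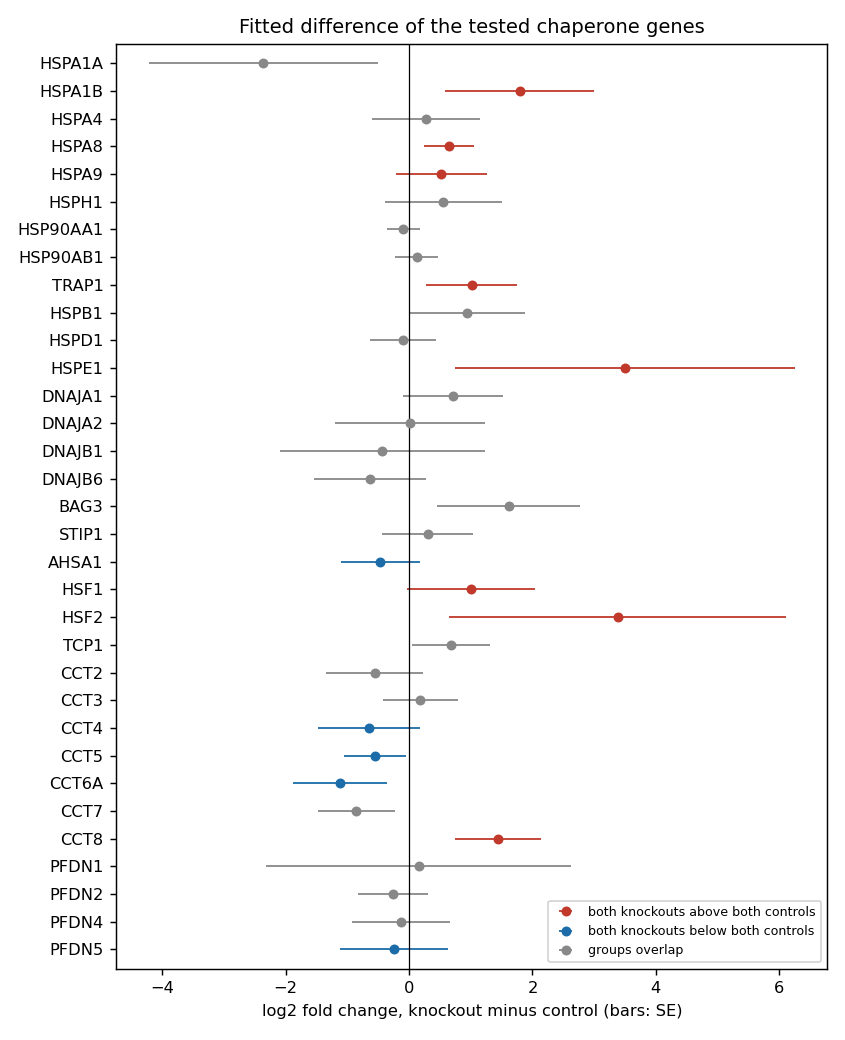
Fitted log2 fold change of the 33 tested chaperone genes, knockout minus control, with bars of 1 SE, coloured by whether the groups overlap. HSPE1 and HSF2 have the highest values, 3.50 and 3.38, and wide bars, and HSPA1A has the lowest, −2.37.

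The CCT ring, which folds actin and tubulin, had a steady total and unsteady parts. The FPKM of its 8 subunit genes summed to 1202 and 1457 in the controls and to 1166 and 1200 in the knockouts, so both knockouts fell just under control 1. CCT8 had the highest value among the subunits in knockout 1 and the lowest in control 1. It stood at 39.4 and 129 FPKM in control cells and 283 and 134 in knockout cells. Knockout 2 and control 2 were close, and the fitted difference of 1.44 ± 0.70 (SE), with an unadjusted p of 0.0386 and an adjusted p of 0.955 in limma, was 0.59 without control 1.

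CCT4, CCT5 and CCT6A were lower in both knockouts than in both controls. CCT6A had FPKM of 169 and 112 against 46.2 and 86.3, a fitted difference of −1.12 ± 0.76 (SE) that was −1.57 to −0.67 with any 1 library left out. CCT5 had 373 and 367 against 203 and 315, a fitted difference of −0.55 ± 0.50 (SE), and leaving out knockout 1 gave −0.23 and leaving out knockout 2 gave −0.87. It was the most abundant subunit in 3 of the 4 libraries. CCT4 had 62.4 and 134 against 56.7 and 58.9, a fitted difference of −0.66 ± 0.83 (SE) that was −0.11 without control 2. None passed (adjusted p = 0.955 in limma for each). Exons of the antisense gene AC012640.4 cover 30.1% of the exonic bases of CCT5.

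The remaining subunits overlapped between groups. CCT7 had FPKM of 272 and 175 against 67.9 and 212, with knockout 1 alone low. TCP1, the alpha subunit, had 64.6 and 221 against 222 and 166, with control 1 alone low. CCT3 had 129 and 206 against 195 and 176, and CCT2 had 92.1 and 114 against 92.8 and 51.9. The median log2 fold change of the 8 subunits was −0.55, with 5 below 0 and 3 above. It was −0.13 without knockout 1 and −0.26 without control 2. The ratio of CCT5 to CCT8 ran from 9.46 in control 1 and 2.85 in control 2 to 0.718 in knockout 1 and 2.36 in knockout 2. The ring itself holds each subunit once per layer.

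**Figure D4:**
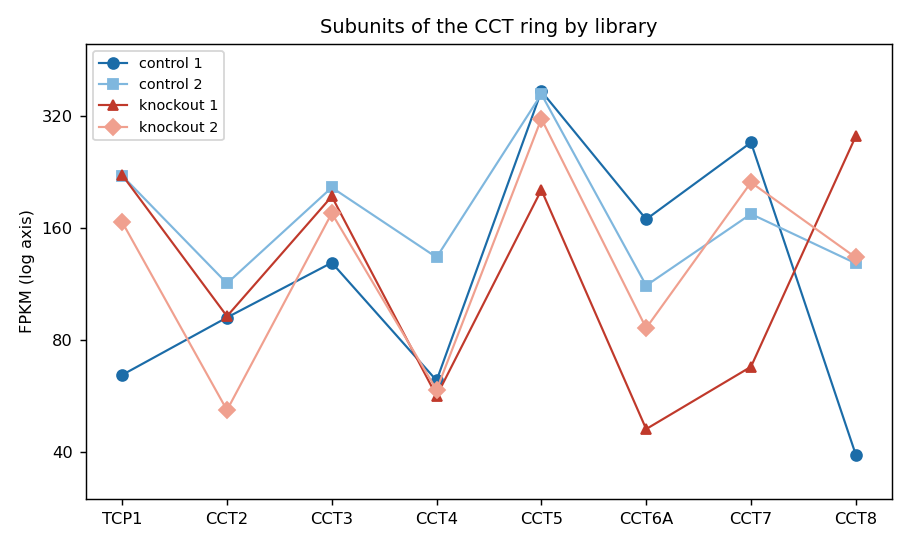
FPKM of the 8 CCT subunit genes on a log axis, with 1 line per library. Control 1 and knockout 1 part most widely at CCT8 (39.4 and 283), while control 2 and knockout 2 run close there (129 and 134).

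Prefoldin genes, whose product delivers actin and tubulin to CCT, showed no shared direction, with 1 fitted value above 0 and 3 below. PFDN5 gave 71.9 and 66.4 FPKM in control cells and 55.99 and 60.7 in knockout cells. Both knockouts were lower and all 4 values were close, the highest 1.28 times the lowest. PFDN2 had 200.2 and 255 against 171 and 207, and PFDN4 had 62.6 and 116 against 104 and 58.5. PFDN1 was listed at 0 in control 1 and had 41.5 in control 2, against 0.911 and 17.9. Its replicates were the farthest apart of all members in the controls. PFDN6 had 0 and 1.40 against 0 and 0.421, from at most 5 reads, and was not tested. Exons of RGL2 and WDR46 on the other strand cover 32.2% of its exonic bases.

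The libraries did not pair by group over these genes. Members are not independent of each other, and as a description over the 33 tested, Pearson's r of log2 values was 0.95 between control 2 and knockout 2 and 0.90 between control 1 and knockout 2. The controls gave 0.84 with each other, the knockouts 0.62, and control 2 with knockout 1 gave 0.55. Knockout 1 held the highest value for 14 of the 35 members and the lowest, alone or tied, for 12 of those tested. By the same counts control 1 had 8 and 11, control 2 had 8 and 8, and knockout 2 had 5 and 4. Knockout 1 was also the shallowest library, and depth as a cause was not tested. Over all genes tested the correlations were 0.42 to 0.49, lower than each of the values over the members.

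**Figure D5:**
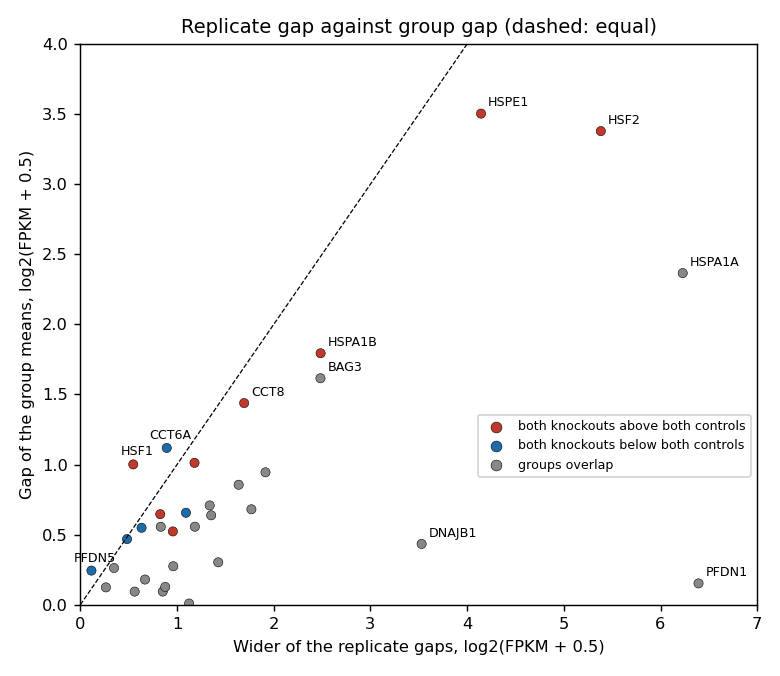
For each of the 33 tested chaperone genes, the wider of the gaps between replicates against the gap between group means, both on the log2(FPKM + 0.5) scale. HSF1, CCT6A and PFDN5 lie above the dashed line of equality, and the other 30 lie below it.

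Other genes of the folding system were counted in the same fit, from a list of 79 of which 77 matched a single row and 61 were tested. None passed (0 called in limma, against 0.0872% of all genes tested, and 0 called in limma-voom). In limma 4 had an unadjusted p under 0.05, against 3.91% of all genes. The fitted value was above 0 for 20 and below 0 for 41, and above 0 for 48.2% of all genes. Without knockout 1 the split was 34 to 27, and 55.8% of all genes were above 0. In that library 47 of the 77 were above 0, against 59 to 61 in each of the others. Both knockouts lay above both controls for 7 of the 61 and below them for 13, against 12.1% and 14.4% of all genes tested.

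By class, the fitted value was above 0 for 3 of 4 other HSP70 and small heat shock protein genes and for 5 of 14 J-domain genes. It was above 0 for 6 of 20 cochaperones, 1 of 7 mitochondrial chaperone and protease genes, 4 of 11 prefoldin, CCT and tubulin folding genes, and 1 of 5 genes around the heat shock factors. Among those whose groups did not overlap, CLPB, a disaggregase of mitochondria, had the largest fitted difference, with 39.01 and 24.4 FPKM in control cells against 0 and 0.716. UXT, a prefoldin-like subunit, had 79.7 and 4.19 against 0 in both knockouts. SERPINH1, the collagen chaperone HSP47 and a target of HSF1, had 29.1 and 3.78 against 0 in both.

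BAG5, an exchange factor of HSP70, had 39.2 and 26.9 FPKM against 0 and 7.12. TBCA, which takes up tubulin released from CCT, went the other way, at 1.41 and 2.56 against 117 and 24.9. A listed 0 in knockout 1 entered the fit of 4 of these 5 genes, TBCA being the exception.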

How the data were processed

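PolyA RNA of 4 T24 libraries was analysed, 2 per group. The authors deposited 1 table of FPKM per library. File names point to HTSeq as the counter, and the submitters' processing notes give hg38 as the build. For the aligner, annotation release and strand setting, the sources used here give nothing. Names, positions and longest transcripts came from GENCODE 29, which matched 58039 of 58302 genes. FPKM times transcript length gave whole reads (tolerance 0.0001) for 96.4 to 96.5% of genes above 0, and 310 further lengths were solved from the values. Floors of 3 reads cover counting error only, since reads without molecular identifiers are not independent molecules.

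Genes whose FPKM averaged 1 or more were tested with limma 3.58.1 in R 4.3.3 (eBayes with trend) on log2(FPKM + 0.5), a scale that understates changes of low genes. The fit was tested on simulated data, which checks the code and not its power at the spread of these libraries. Fold changes are printed for members whose groups do not overlap (the 12 largest) and for HSPA1A, HSPA1B, HSPA8, HSP90AA1, HSP90AB1, HSPD1, HSPB1 and HSF1. Related genes are named where groups do not overlap (the 6 largest), with 1 of these not reported here. HSPA14 and TBCE matched no single row. Members and lists were chosen with earlier results of these data known. Alternatives covered the pseudocount, filter, scaling, moderation, a replicate block, protein-coding genes only, limma-voom on recovered reads, the threshold and each library left out. Tables and figures were made with Python 3.11.15, numpy 2.4.6, pandas 2.3.3, biopython 1.88 and matplotlib 3.10.9.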

Additional observations from a re-analysis of the deposited data

How the results depend on the processing

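The count of 0 chaperone genes past the threshold was the same in all 11 alternatives that kept the 4 libraries and with each library left out. Members with a higher fitted value numbered 18 to 20 in the 10 of these that refit the values. With 1 library left out they numbered 17 to 20. The members' median log2 fold change was above 0 in each (0.12 to 0.18, and 0.05 to 0.26), but not always above that of all genes. It was lower without control 2 (0.26 against 0.34) and without knockout 1 (0.11 against 0.16). It was higher without control 1 (0.05 against −0.35) and without knockout 2 (0.26 against −0.56). The count of 10 genes among all tested was 0 when eBayes had no trend (415 genes at an unadjusted p under 0.05), 2 among protein-coding genes, 18 at an adjusted p of 0.1 and 0 with each library left out (752 to 1025 at an unadjusted p under 0.05), a fit in which a lone library takes its spread from the other group. The median over all genes, −0.08, was 0.04 under limma-voom and ran from −0.56 to 0.34 with 1 library left out, so signs of single genes are relative to such shifts. With the replicate number as a block (replicate block) 14 genes and 0 members passed. Deviations of same-numbered libraries correlated at −0.004, which shows no pairing by that measure. Over the 33 tested members, Pearson's r between the groups was 0.695 and 0.946 for same-numbered libraries. It was 0.898 and 0.554 for libraries of unlike number. Pairing among the members was not tested. Signs of small differences turned. HSP90AA1 came to 0.18 under quantile normalization and 0.0888 under limma-voom, and to −0.38 to 0.19 with 1 library left out. Left-out ranges that crossed 0 were −5.48 to 0.75 for HSPA1A, −0.0082 to 0.26 for HSP90AB1, −0.52 to 0.33 for HSPD1 and −0.0126 to 1.90 for HSPB1. The other 12 members with a printed fold change kept their sign. Their groups do not overlap, so leaving out 1 library could not turn it. The groups of HSPA1A, HSP90AA1, HSP90AB1, HSPD1 and HSPB1 do overlap, so leaving out 1 library could turn their sign. Why the sign of HSP90AA1 turned under quantile normalization and limma-voom was not tested. HSPE1 and HSF2 had 0 reads in each control. In knockouts 1 and 2 HSPE1 had 18 and 1 and HSF2 had 71 and 1, so the fitted values of both rest on the pseudocount.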
